A study of Mus musculus with 2 samples.

Results

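The genes described are Cxcl12, Cxcr4 and Ackr3, 3 of the 32285 genes counted in the series, chosen by their symbols and followed across the stromal, endothelial and blood cells of the temporomandibular joint (TMJ). Cxcl12 encodes a secreted chemokine, Cxcr4 encodes the G protein-coupled receptor through which cells move toward it, and Ackr3 encodes an atypical receptor that binds and internalises Cxcl12 without the usual G protein signal. Stromal cells of bone marrow and vessel walls are known sources of Cxcl12, which keeps leukocyte precursors in the marrow, while Ackr3 is known as a scavenger that lowers the local chemokine. In GRCm38, Cxcl12 (ENSMUSG00000061353) lies on the plus strand of chromosome 6 from 117168535 to 117181367, Ackr3 (ENSMUSG00000044337) on the plus strand of chromosome 1 from 90203980 to 90216751, and Cxcr4 (ENSMUSG00000045382) on the minus strand of chromosome 1 from 128588199 to 128592293. Cxcl12 has 4 annotated transcripts, and the counts are summed per gene, so its isoforms were not told apart.

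Single cells of 2 libraries were counted, 1 of the TMJ in wild-type (WT) mice and 1 of that in Prox1 mutants, which the study's methods name as Prox1+/-. Prox1 specifies lymphatic endothelium, and the comparison asks how a joint with deficient lymphatics differs in arthritis. Both groups were C57BL/6 mice labelled as 8 to 10 weeks old, described as female in the study's text, and both had received complete Freund's adjuvant (CFA), an emulsion that inflames the joint, into the TMJ. No joint without CFA was analysed here, and the number of mice behind each library is not given in the sources used here. With 1 library per group there was no replicate check and no test between the groups. Levels are given as unique molecular identifiers (UMIs, single captured transcripts) of a gene per 1000000 UMIs of the cells named (CPM), with exact Poisson 95% intervals, which, like every interval here, cover counting error only. Levels are compared between cells and not between genes.

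After filtering, 4352 WT cells and 5757 mutant cells were kept, with a median of 6997 and 4848 UMIs per cell. They fell into 46 clusters. Of these, 33 were named for 17 cell types from marker genes, and each name means a likeness to that type. The 13 unnamed clusters held 13.3% of the WT cells against 32.9% of the mutant cells. Over all kept cells Prox1 itself stood at 11.6 CPM in WT against 5.80 CPM in the mutant, and in endothelial-like cells at 39.2 and 22.9 CPM. Among the kept cells, 4 barcodes occurred in both libraries. Haemoglobin transcripts were more abundant in the mutant cells of many types, though not in Schwann- and glia-like or T and NK-like cells, with 1561 CPM in WT against 20479 CPM in mutant endothelial-like cells and 2969 and 26693 CPM in mesenchymal-like cells, and their part in the results was not tested.

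The 3 genes divided the joint between stroma and blood. Cxcl12 was found in endothelial-like, mesenchymal-like, mural and adipocyte-like cells, Cxcr4 in leukocytes, and Ackr3 mainly in mesenchymal-like cells. Of the 9172 Cxcl12 UMIs in WT cells, 50.9% came from endothelial-like cells and 32.3% from mesenchymal-like cells, which made up 29.0% and 11.1% of the cells. In the mutant, with 9802 Cxcl12 UMIs, endothelial-like cells gave 30.9% and were 13.4% of the cells, and mesenchymal-like cells gave 34.1% and were 7.80% of the cells. Ackr3 came from mesenchymal-like cells for 68.1% of 5357 WT UMIs and 68.5% of 3858 mutant UMIs. The Cxcr4 UMIs were spread more widely, and macrophage-like and neutrophil-like cells gave 608 and 454 of 2764 in WT against 819 and 675 of 3442 in the mutant. The unnamed clusters together gave more than any named type, 858 in WT and 893 in the mutant. Of these, 784 and 537 were in an unnamed cluster led by Mmp12.

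**Figure D1:**
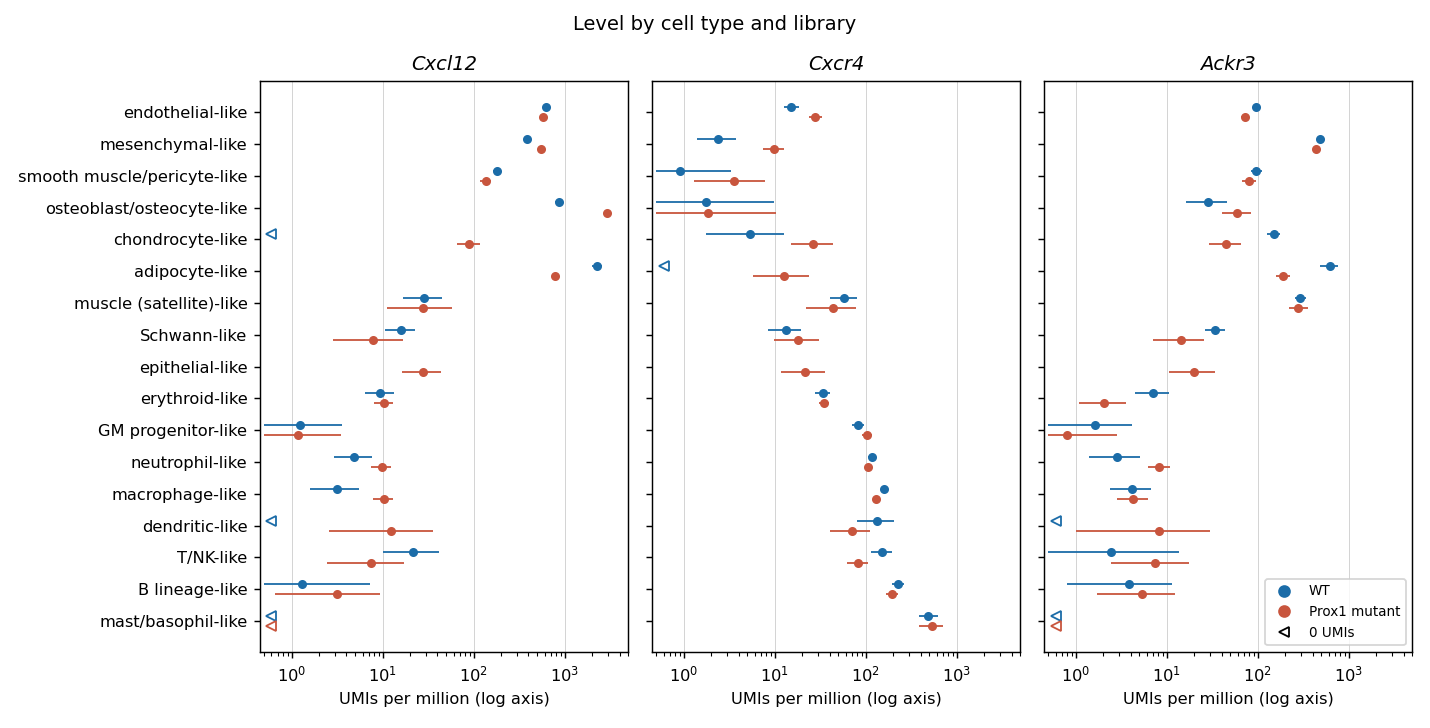
CPM (log axis) of Cxcl12, Cxcr4 and Ackr3 in each cell type with at least 5 cells, in WT (blue) and the Prox1 mutant (red), with lines for exact Poisson 95% intervals and open triangles for types with 0 UMIs. Cxcl12 and Ackr3 stand high in the stromal types at the top and near 1 to 10 CPM in most blood types, and Cxcr4 shows the opposite arrangement.

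Over the 30 profiles of a cell type in a library, each with at least 20 cells, Pearson's r on the log2(CPM + 5) scale was -0.72 between Cxcl12 and Cxcr4, -0.70 between Cxcr4 and Ackr3 and 0.66 between Cxcl12 and Ackr3. The 2 profiles of a type share its markers, so these values only describe the arrangement. Among 11641 genes with at least 500 UMIs, the 5 most like Cxcl12 were Zfp423 (r = 0.92), Gas6 (0.91), Smad6 (0.90), Ebf3 (0.90) and Pdgfd (0.90). Genes much like Ackr3 were Fhl1 (0.95), Grb10 (0.91), Il17rc (0.90) and Adamts12 (0.90). Cxcr4 came closest to Baz1a (0.91), Mir142hg (0.87), Fermt3 (0.87), Tbk1 (0.87) and Ikzf1 (0.87), and of these Ikzf1 encodes a lymphoid transcription factor and Fermt3 an integrin activator of blood cells.

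The ligand was highest, among types with at least 20 cells, in the cluster named for osteoblasts and osteocytes. There Cxcl12 stood at 860 CPM (786 to 940) in 30 WT cells against 2908 CPM (2765 to 3055) in 22 mutant cells. Under 8 other cell filters, clusterings and ways of taking cells, this cluster kept the first place in 4 in WT, where endothelial-like cells came first otherwise. In the mutant it kept it in 3, and adipocyte-like cells came first in the others except when cells were taken by marker UMIs alone, where marrow reticular-like cells did. With the highest doublet scores removed, 15 mutant types were ranked against 16 in the main setting. Only types with at least 20 cells were ranked, and this cluster had 22 in the mutant. It can therefore also lose its place by having too few cells. This cluster was a mixture, and Cxcl12 was carried by the cells with reticular rather than bone transcripts. The cells were divided, after their values had been seen, by their UMIs of 6 genes of marrow reticular stroma (Lepr, Kitl, Foxc1, Ebf3, Adipoq and Hp) against 4 bone genes (Bglap, Dmp1, Phex and Ibsp), with at least 5 UMIs of the leading set. Leptin receptor and Kit ligand mark the stromal cells of marrow that are known for abundant Cxcl12, whereas Bglap encodes osteocalcin of bone-forming cells.

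In the 6 WT cells led by reticular genes, Cxcl12 ranged from 2.98 to 139 UMIs per 10000, with a median of 53.0. The 12 mutant cells of this kind ranged from 0 to 171 UMIs per 10000, with a median of 89.1, and 1 cell held 251 Cxcl12 UMIs. The 20 WT cells led by bone genes had a median of 0.240 and a highest value of 17.9, and the 10 mutant cells had a median of 2.55 and a highest value of 129. The reticular and bone-led cells thus overlapped in their ranges while their medians lay far apart in each library. Summed over the cells, the reticular-led cells held 4954 CPM (4494 to 5449) in WT against 9393 CPM (8889 to 9918) in the mutant. The bone-led cells held 133 CPM (101 to 171) and 674 CPM (596 to 760). Of the 271 mutant UMIs of the bone-led cells 110 came from 1 cell, in which bone genes led by 8 UMIs against 7, and 52 came from a cell with 73 against 63. Without the cell with the most Cxcl12 UMIs in each library, an alternative chosen after seeing the data, the levels were 99.3 CPM (71.2 to 135) and 409 CPM (349 to 478). Neither receptor was seen in the reticular-led cells, with 0 UMIs of Cxcr4 and 0 of Ackr3 in the 6 WT and 12 mutant cells, where 3 UMIs, the limit that a count of 0 allows, would be 35.1 and 21.7 CPM. Reticular-led cells were 6 of 30 cells of the cluster in WT against 12 of 22 in the mutant, and the part of this make-up in the higher Cxcl12 of the cluster was not tested. The remaining 4 WT cells, led by neither set, had at most 2.48 Cxcl12 UMIs per 10000.

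**Figure D2:**
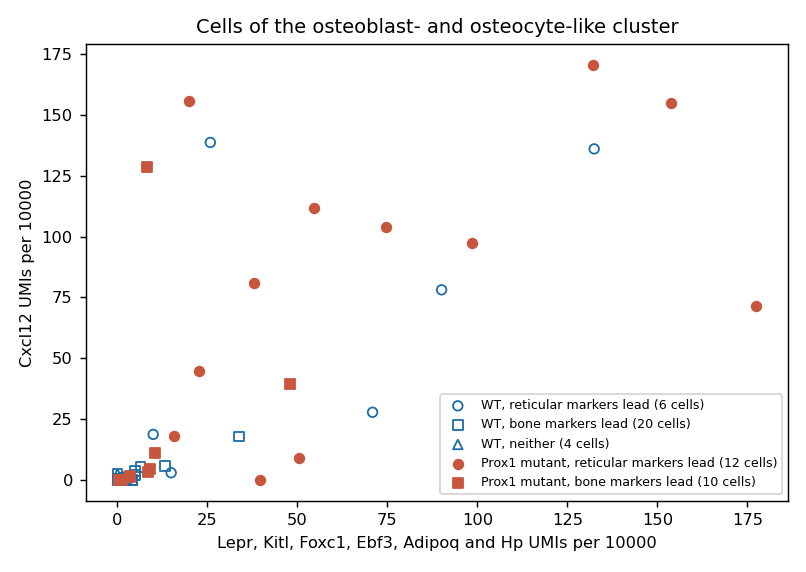
Cxcl12 UMIs per 10000 (vertical axis) against the summed UMIs per 10000 of Lepr, Kitl, Foxc1, Ebf3, Adipoq and Hp (horizontal axis) in each of the 52 cells of the osteoblast- and osteocyte-like cluster, with WT cells open and mutant cells filled and the shape showing which marker set led. Most bone-led cells lie near 0 on both axes, and most cells above 25 Cxcl12 UMIs per 10000 are reticular-led.

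Among endothelial-like cells the summed level of the ligand followed the vessel type. The class held 619 CPM of Cxcl12 (601 to 637) in 1263 WT cells against 582 CPM (561 to 603) in 772 mutant cells. With 2000 UMIs drawn at random from every cell (thinning), which left out 240 WT and 177 mutant cells, 57.7% of WT cells (54.6 to 60.7, exact Clopper-Pearson) against 57.1% of mutant cells (53.1 to 61.2) had a Cxcl12 UMI, and the unthinned shares were 67.6% and 66.5%. In neutrophil-like cells, which were not a source of the chemokine, the thinned shares were 1.58% and 2.89% and the unthinned ones 3.03% and 6.84%, at median depths of 5911 and 4849 UMIs against 3984 and 4810.5 in the endothelial-like cells.

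The arterial-like cluster, marked by Sema3g and Gja5, was highest, with 1027 CPM (978 to 1077) in 250 WT cells against 956 CPM (901 to 1014) in 136 mutant cells. The capillary-like cluster, marked by Car4 and Gpihbp1, followed with 728 CPM (693 to 765) in 461 WT cells against 748 CPM (705 to 793) in 246 mutant cells. The venous-like cluster, marked by Selp and Plvap, was lowest, with 346 CPM (324 to 368) in 179 WT cells against 264 CPM (240 to 289) in 93 mutant cells. This order of the summed levels in arterial-like, capillary-like and venous-like cells was the same in both libraries, with no overlap of intervals. The median cell did not keep the arterial-like cluster first in both. The median was 5.82 Cxcl12 UMIs per 10000 in arterial-like against 5.58 in capillary-like cells of WT. In the mutant it was 5.38 in arterial-like against 6.40 in capillary-like cells. The venous-like median was the lowest of these clusters in both libraries. A cluster led by Ccdc85a and Bmp6 lay between the capillary-like and venous-like cells at 420 CPM (374 to 471) in WT against 389 CPM (343 to 439) in the mutant. A shallow cluster led by Rbp7, with a median of 1420 UMIs in WT against 981 in the mutant, held 591 CPM (492 to 706) and 499 CPM (382 to 640).

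Between the libraries, endothelial Cxcl12 differed little. The log2 ratio of mutant to WT was -0.09 (-0.16 to -0.02) over the class and -0.11 when each cluster was given the weight it has in WT. It was 0.04 (-0.07 to 0.15) in capillary-like, -0.10 (-0.21 to 0.01) in arterial-like and -0.39 (-0.55 to -0.23) in venous-like cells, so of the 3 only the venous-like value lay beyond its counting error. The class value turned to 0.00 when the libraries were merged without integration and to 0.02 when cells were taken by marker UMIs alone. Over the 10929 genes with at least 50 endothelial UMIs, 4.65% differed 2-fold or more in either direction. None of the 3 genes was among them in these summed UMIs, although Cxcr4 passed 2-fold as a mean over cells of each cell's CPM, with a log2 ratio of 1.43.

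Cells with lymphatic transcripts were few, and their summed levels of Cxcl12 and Ackr3 differed from those of all endothelial-like cells. With at least 3 of the 5 markers Prox1, Mmrn1, Ccl21a, Reln and Lyve1, 12 WT cells and 4 mutant cells were found. Prox1 was itself lower in mutant endothelial-like cells, and its part in which cells were picked was not tested. In the WT cells Cxcl12 had 20 UMIs, all in 1 cell, and in the mutant cells it had 0, which allows up to 42.2 CPM. Ackr3, by contrast, stood at 332 CPM (252 to 430) in the 12 WT cells, in 7 of which it was detected, and at 380 CPM (250 to 552) in the 4 mutant cells, in 3 of which it was detected, with 23 of its 27 UMIs in 1 cell. These levels were above the 95.5 CPM (88.7 to 103) and 72.9 CPM (65.7 to 80.6) of all endothelial-like cells. In WT 20 of the 57 Ackr3 UMIs were in 1 cell. With thinning, 6 of the 12 WT cells and 1 of the 4 mutant cells had an Ackr3 UMI, so the mutant level rests largely on 1 cell. The scavenger is known from lymphatic endothelium, where it also takes up adrenomedullin.

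Over all endothelial-like cells, Ackr3 was lower in the mutant, with a log2 ratio of -0.39 (-0.57 to -0.21), and the mutant level was lower in each of the 5 clusters. The interval excluded 0 in the capillary-like (-0.38, -0.68 to -0.09), arterial-like (-0.55, -0.96 to -0.16) and venous-like cells (-0.50, -0.88 to -0.12). With thinning, 17.3% of WT (15.03 to 19.8) and 13.4% of mutant endothelial-like cells (10.8 to 16.5) had an Ackr3 UMI, and the unthinned shares were 28.1% and 23.8%. The thinned share was 0.949% and 4.16% in neutrophil-like cells, against 1.65% and 6.69% unthinned.

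**Figure D3:**
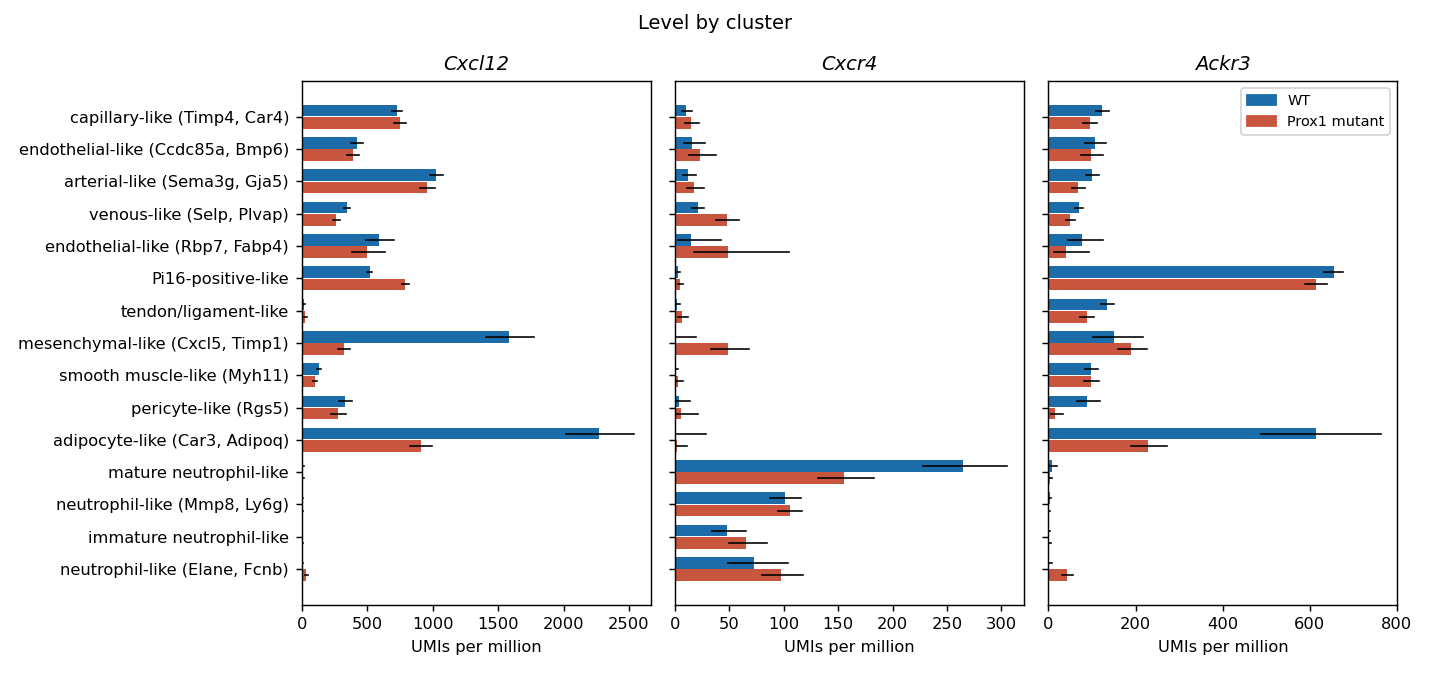
CPM of the 3 genes in the clusters of endothelial-like, mesenchymal-like, mural, adipocyte-like and neutrophil-like cells in WT (blue) and the Prox1 mutant (red), with lines for exact Poisson 95% intervals. Arterial-like cells exceed capillary-like and venous-like cells in Cxcl12, Ackr3 is highest in Pi16-positive-like and adipocyte-like cells, and Cxcr4 is highest in mature neutrophil-like cells.

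In mesenchymal-like cells most UMIs of the ligand and of its scavenger came from the same cluster. This was the Pi16-positive-like cluster, led by Prg4, Clec3b, Col14a1, Pi16 and Has1 and named for its likeness to the fibroblasts of loose connective tissue. Prg4, which encodes lubricin, and Has1 were also among the markers used for synovial lining cells. The cluster may hold such cells too, and it was not divided. Cxcl12 stood there at 519 CPM (499 to 539) in 296 WT cells against 792 CPM (764 to 820) in 164 mutant cells, for a log2 ratio of 0.61 (0.53 to 0.69). Ackr3 stood at 655 CPM (633 to 677) and 614 CPM (589 to 639), a log2 ratio of -0.09 (-0.17 to -0.02). The cluster resembling tendon and ligament, led by Tnn and Postn, held little of the ligand, 16.3 CPM (11.6 to 22.3) in 170 WT cells against 27.9 CPM (20.1 to 37.9) in 103 mutant cells. It kept the scavenger at 134 CPM (120 to 149) and 87.9 CPM (73.4 to 104), a log2 ratio of -0.61 (-0.91 to -0.31).

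The higher Cxcl12 of the Pi16-positive-like cells in the mutant lay in the upper part of the cells. The median cell held 1.26 Cxcl12 UMIs per 10000 in WT against 1.51 in the mutant, the 75th percentile was 5.48 and 8.84, and the 90th percentile was 14.3 and 21.8. The tenth of cells with the most UMIs gave 59.0% and 54.4% of all Cxcl12 UMIs of the cluster. With thinning, the share of cells with a Cxcl12 UMI was 39.2% (33.6 to 45.1) in WT against 37.2% (29.8 to 45.1) in the mutant, and without it 63.2% and 71.3%, at median depths of 15186 and 21976.5 UMIs. The 2 libraries therefore shared the fraction of positive cells at equal depth within counting error while they differed in the summed level. Ackr3 was more evenly spread, with a median of 4.49 and 3.53 UMIs per 10000 and 90th percentiles of 15.06 in WT against 15.05 in the mutant.

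**Figure D4:**
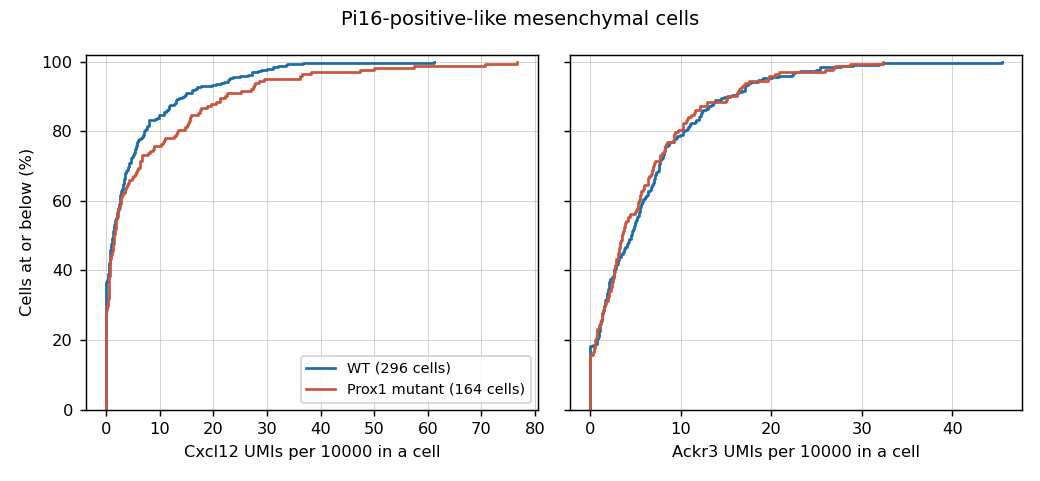
Cumulative share of the 296 WT (blue) and 164 mutant (red) Pi16-positive-like cells against the Cxcl12 (left) and Ackr3 (right) UMIs per 10000 in a cell. The cells were not thinned. The Cxcl12 curves start apart, with a larger share of WT cells at 0. They lie nearer around the median and separate again above it, with 90th percentiles of 14.3 in WT against 21.8 in the mutant. For Ackr3 the medians were 4.49 in WT against 3.53 in the mutant, and the 90th percentiles were 15.06 and 15.05.

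A further mesenchymal-like cluster, led by Cxcl5, Timp1 and Saa3, came mostly from the mutant, with 18 WT and 182 mutant cells at median depths of 2194.5 and 2798 UMIs. Cxcl12 was at 1585 CPM (1412 to 1773) in its WT cells against 321 CPM (280 to 367) in its mutant cells, and a single WT cell held 114 of the 304 WT UMIs. Because the clusters take different shares of the class, the class ratio mixes them. Cxcl12 was 388 CPM (374 to 402) in 484 WT cells against 553 CPM (534 to 572) in 449 mutant cells, for a log2 ratio of 0.51 (0.44 to 0.58), and 0.48 with the cluster mix of WT. Without the Cxcl5-led cluster it was 0.71. For Ackr3 the class ratio was -0.13 (-0.20 to -0.06), with 479 CPM (463 to 495) in WT against 438 CPM (421 to 455) in the mutant, and again -0.13 with the cluster mix of WT. Of 11599 genes with at least 50 UMIs in mesenchymal-like cells, 4.95% differed 2-fold or more, and Cxcl12 and Ackr3 did not. Cxcr4 was past 2-fold, with 18 UMIs in WT (2.36 CPM, 1.40 to 3.73) and 59 in the mutant (9.77 CPM, 7.44 to 12.6). Markers of neutrophils stood at 216 CPM in WT against 1525 CPM in the mutant in these cells, and their part was not tested. Of the 59 mutant UMIs, 33 were in the Cxcl5-led cluster.

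Some mesenchymal-like cells had UMIs of both Cxcl12 and Ackr3. Of 484 WT cells 157 had UMIs of both genes (32.4%, 28.3 to 36.8), 56 of Cxcl12 alone, 155 of Ackr3 alone and 116 of neither. In the mutant, 140 of 449 cells had both (31.2%, 26.9 to 35.7). At 2000 UMIs per cell the share with both was 11.9% (9.09 to 15.1) and 10.3% (7.56 to 13.7), so most of the joint detection in deep cells is lost at equal depth. At that depth Cxcl12 was found in 25.8% of WT and 26.1% of mutant cells, and Ackr3 in 39.4% and 31.8%. In endothelial-like cells both genes were found together in 19.9% of WT cells (17.7 to 22.2) against 18.1% of mutant cells (15.5 to 21.0), and after thinning in 11.1% (9.28 to 13.2) and 7.73% (5.72 to 10.2). The thinned shares of each gene alone were 57.7% and 57.1% for Cxcl12 and 17.3% and 13.4% for Ackr3. Whether the genes met in a cell more often than their separate shares would give was not tested.

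The remaining stromal cells differed in the balance of ligand and scavenger. Pericyte-like cells, marked by Rgs5 and Kcnj8, had more of the ligand than the smooth muscle-like cells marked by Myh11, with 332 CPM of Cxcl12 (285 to 384) against 130 CPM (114 to 149) in WT. In the mutant these levels were 276 CPM (223 to 338) and 100.1 CPM (83.9 to 119). Ackr3 in pericyte-like cells was 89.5 CPM (66.0 to 119) in 62 WT cells against 14.7 CPM (4.77 to 34.3) in 34 mutant cells, on 48 and 5 UMIs. In smooth muscle-like cells it was 98.4 CPM (83.9 to 115) and 97.1 CPM (81.1 to 115). The satellite-like muscle cells, marked by Pax7, were low in Cxcl12, at 28.1 CPM (16.6 to 44.4) and 27.9 CPM (11.2 to 57.6), and carried both receptors. In them Ackr3 stood at 293 CPM (253 to 338) in 89 WT cells against 279 CPM (218 to 353) in 35 mutant cells, and Cxcr4 at 57.7 CPM (40.7 to 79.6) and 43.9 CPM (21.9 to 78.6), and 19 WT and 9 mutant cells had UMIs of both.

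The deep adipocyte-like cluster, led by Car3 and Adipoq, was a strong source with few cells, at 2267 CPM of Cxcl12 (2017 to 2539) in 6 WT cells against 909 CPM (830 to 994) in 24 mutant cells. Ackr3 there was 614 CPM (488 to 763) and 228 CPM (189 to 273), of which 66 of the 81 WT UMIs came from 1 cell. A second adipocyte-like cluster of 90 mutant cells, with a median of 1560.5 UMIs, held 426 CPM of Cxcl12 (336 to 533). Chondrocyte-like cells had 0 Cxcl12 UMIs in 29 WT cells, which allows up to 3.22 CPM, and 88.7 CPM (65.9 to 117) in 106 mutant cells. Their Ackr3 was 150 CPM (126 to 177) in WT against 44.4 CPM (28.7 to 65.5) in the mutant. The 2 sets of chondrocyte-like cells were unlike in quality, with median depths of 32750 and 3350.5 UMIs and haemoglobin at 151 and 105376 CPM, and the part of this in the difference was not tested.

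**Figure D5:**
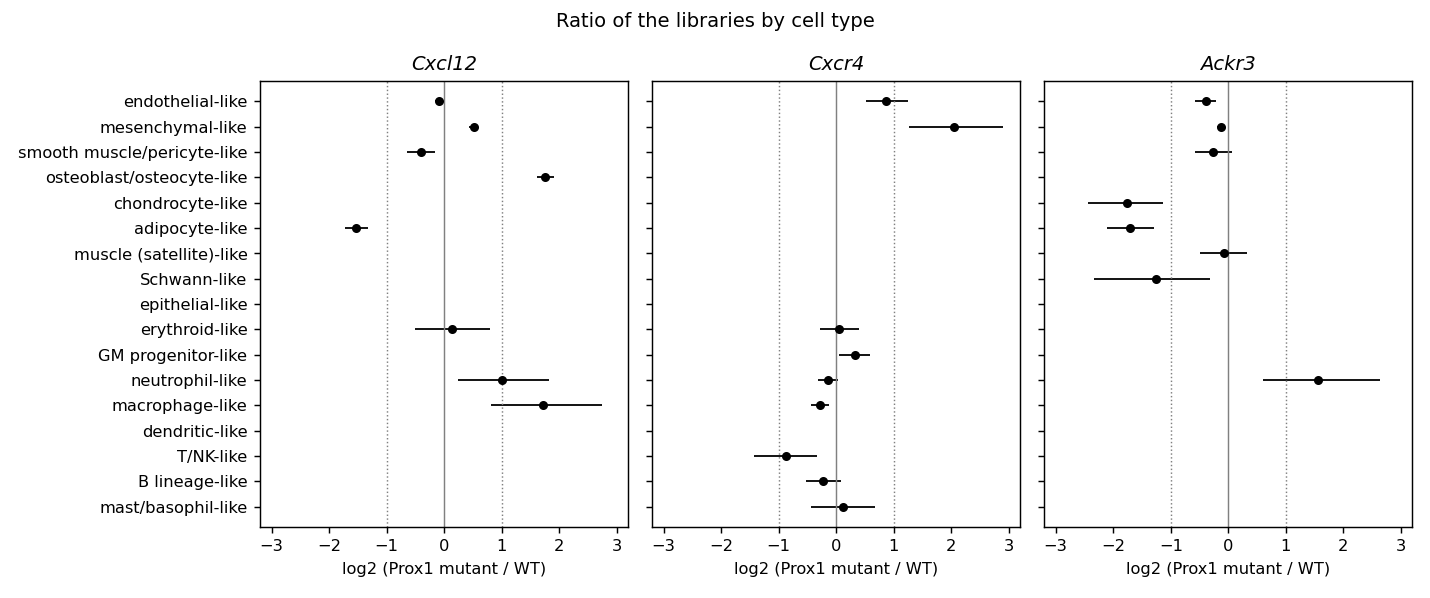
Log2 ratio of Prox1 mutant to WT for each cell type with at least 50 UMIs of the gene and 5 cells per library, with lines for exact 95% intervals, a solid line at 0 and dotted lines at 2-fold. Cxcl12 lies above 0 in mesenchymal-like and osteoblast- and osteocyte-like cells and below 0 in mural and adipocyte-like cells. It also lies above 0 in macrophage-like cells (12 UMIs in WT, 65 in the mutant) and neutrophil-like cells (19 and 62), at low levels. Cxcr4 lies within 2-fold in the leukocytes, and Ackr3 lies below 0 or spans it in every stromal type shown.

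Turning to the receptor, Cxcr4 was carried by leukocytes of nearly all kinds. Mast cell- and basophil-like cells, led by Mcpt8 and Prss34, had the most, with 489 CPM (382 to 617) in 12 WT cells against 532 CPM (389 to 709) in 17 mutant cells. In the mutant 22 of their 46 UMIs came from 1 cell, and 8 of the 17 cells had a UMI. Among types with at least 20 cells, B lineage-like cells came first in both libraries, followed by macrophage-like cells at 158 CPM (145 to 171) in WT against 129 CPM (121 to 138) in the mutant. Most neighbours below them overlapped in their intervals, although in WT the neutrophil-like cells stood apart from the progenitors and in the mutant the macrophage-like cells stood apart from the neutrophil-like cells. The T and NK-like cells held 150 CPM (115 to 192) and 81.8 CPM (61.6 to 106), dendritic-like cells 132 CPM (80.7 to 204) and 70.0 CPM (40.8 to 112), neutrophil-like cells 116 CPM (106 to 128) and 106 CPM (97.9 to 114), and granulocyte-monocyte progenitor-like cells 82.4 CPM (71.5 to 94.6) and 103 CPM (90.7 to 116). Erythroid-like cells had 33.7 CPM (27.7 to 40.6) and 34.9 CPM (30.4 to 39.8). An unnamed cluster led by Mmp12, with 256 WT and 191 mutant cells, had 91.9 CPM (85.6 to 98.6) and 82.2 CPM (75.4 to 89.4).

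Cxcr4 differed among the neutrophil-like clusters, and it was lowest in the immature and highest in the mature cluster in both libraries. The immature cluster, led by Fcnb, Camp and Ngp, had 48.1 CPM (34.4 to 65.5) in 43 WT cells against 65.5 CPM (49.98 to 84.3) in 42 mutant cells. The cluster led by Mmp8 and Ly6g had 101 CPM (87.5 to 116) in 124 WT cells against 105 CPM (94.7 to 117) in 173 mutant cells. The mature cluster, led by Stfa2l1 and Il1r2 with the chemokine receptor Cxcr2, had 265 CPM (228 to 306) in 183 WT cells against 155 CPM (131 to 182) in 169 mutant cells. Intervals of these 3 clusters did not overlap within either library. A further cluster, led by Elane and Fcnb, held 13 WT and 259 mutant cells and had 72.5 CPM (48.5 to 104) and 97.4 CPM (79.8 to 118), between the immature and the Mmp8- and Ly6g-led cluster and overlapping both in its intervals. Its median depth was 31604 UMIs in WT against 3212 in the mutant, and the part of this in its levels was not tested.

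The libraries differed beyond counting error in the mature cluster, with a log2 ratio of -0.77 (-1.09 to -0.45). At 2000 UMIs per cell, 44.1% of mature WT cells (35.6 to 52.9) against 23.7% of mutant cells (16.7 to 31.9) had a Cxcr4 UMI, and the unthinned shares were 50.8% and 44.4%, at median depths of 2891 and 4690 UMIs. The ratio was 0.06 (-0.19 to 0.32) in the Mmp8- and Ly6g-led cluster and 0.45 (-0.16 to 1.06) in the immature cluster. Over all 363 WT and 643 mutant neutrophil-like cells the log2 ratio was -0.14 (-0.31 to 0.04) and with the cluster mix of WT -0.15. It was -0.77 as a mean over cells of each cell's CPM and 0.06 with 30 principal components. Of 9429 genes with at least 50 UMIs in these cells 5.35% differed 2-fold or more. Cxcl12, at 4.87 CPM (2.93 to 7.60) and 9.71 CPM (7.44 to 12.4), lay just inside that limit, and Ackr3, at 2.82 CPM (1.41 to 5.04) and 8.30 CPM (6.22 to 10.9), was past it. Of the mutant UMIs, 35 of 62 for Cxcl12 and 46 of 53 for Ackr3 were in the Elane-led cluster, whose 13 WT cells had 0 of either. In the mature cluster Cxcl12 was 8.54 CPM in WT against 9.45 CPM in the mutant, and in the Mmp8- and Ly6g-led cluster 6.60 and 4.08 CPM. For comparison, Ackr3 was 7.44 CPM in T and NK-like and 5.30 CPM in B lineage-like cells of the mutant.

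In B lineage-like cells Cxcr4 was at 226 CPM (194 to 262) in 147 WT cells against 194 CPM (167 to 224) in 137 mutant cells, for a log2 ratio of -0.22 (-0.53 to 0.08). With thinning, 36.1% (27.5 to 45.4) and 34.2% (25.5 to 43.8) had a UMI, against 55.8% and 52.6% without it, while in mesenchymal-like cells, which hold little of the receptor, 0.636% and 4.19% had one with thinning and 2.89% and 9.80% without, at median depths of 4013 and 4517 UMIs in the B lineage-like and 13143 and 10458 UMIs in the mesenchymal-like cells. The developmental make-up of these cells differed: with at least 2 UMIs of the leading set, cells with more UMIs of early B genes such as Vpreb1, Igll1 and Rag1 were 114 in WT against 55 in the mutant, and cells with more of the mature B genes such as Ms4a1 and Ighd were 8 and 51. Cxcr4 was 226 CPM (192 to 264) in early B cells of WT and 153 CPM (120 to 191) in those of the mutant. It was 301 CPM (160 to 514) and 269 CPM (219 to 327) in the mature ones, and in the mutant this was above the early cells without overlap of the intervals. Of 5608 genes with at least 50 UMIs in B lineage-like cells, 12.2% differed 2-fold or more, and Cxcr4 did not.

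Endothelial-like cells had little Cxcr4, yet it was higher in the venous-like cluster of the mutant. The class held 15.2 CPM (12.6 to 18.3) in WT against 27.9 CPM (23.5 to 32.8) in the mutant, for a log2 ratio of 0.87 (0.51 to 1.24). The mutant level was higher in each of the 5 clusters, but only the venous-like log2 ratio, 1.19 (0.69 to 1.70), lay beyond its counting error. In venous-like cells Cxcr4 was 20.8 CPM (15.8 to 26.9) in WT against 47.5 CPM (37.7 to 58.9) in the mutant. These cells held 58 of the 115 WT UMIs and 82 of the 145 mutant UMIs of the class. The share of venous-like cells with a UMI was 2.81% (0.918 to 6.43) and 9.68% (4.52 to 17.6) with thinning and 12.3% and 24.7% without. Neutrophil markers stood at 321 CPM in WT against 1831 CPM in mutant endothelial-like cells and at 179050 and 179634 CPM in the neutrophil-like cells, and their part in the endothelial Cxcr4 was not tested.

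The partners of the axis, given here as a list of 22 genes that includes proteases of Cxcl12, other Cxcl12-binding or competing receptors and regulators of Cxcr4 signalling, were mostly within 2-fold. In endothelial-like cells 19 of the 22 had at least 50 UMIs. The proteases Elane (5.43 CPM in WT, 12.1 CPM in the mutant) and Mmp9 (2.12 and 13.3 CPM) were higher and Mmp2 (7.55 and 3.08 CPM) was lower by 2-fold or more, all at low levels, which is 3 of 19 beside 4.65% of all such genes, and the list's median log2 ratio was -0.05 beside 0.03 over all genes with at least 50 UMIs. Elane and Mmp9 are granule genes of neutrophils, and the part of neutrophil transcripts in their levels in stromal cells was not tested. In mesenchymal-like cells 18 of the 22 reached 50 UMIs, and Elane (2.49 and 17.9 CPM), Mmp9 (2.75 and 10.3 CPM) and the arrestin gene Arrb2 (3.41 and 7.29 CPM) were higher in the mutant, 3 of 18 beside 4.95% of all such genes, with a median of 0.15 beside 0.01. In neutrophil-like cells 19 reached 50 UMIs, with 2 higher and 3 lower, beside 5.35% past 2-fold among all such genes. Elane, the elastase that cleaves Cxcl12, was 551 CPM in WT against 118 CPM in the mutant, and Ctsg, cathepsin G, was 64.3 and 7.52 CPM. Mmp2 was also lower, at 15.1 and 6.26 CPM, and the receptor kinase gene Grk3 was higher, at 8.20 and 17.5 CPM, with a list median of 0.09 beside 0.07. Elane and Ctsg were also markers of the granulocyte-monocyte progenitors. The Elane-led cluster of the neutrophil-like class held 13 WT cells at a median of 31604 UMIs against 259 mutant cells at 3212. The part of this make-up in the Elane and Ctsg levels was not tested. Among the 10 with 50 UMIs in B lineage-like cells, Cd74, a receptor partner of Cxcr4 for the cytokine Mif, was higher, at 606 CPM in WT against 2284 CPM in the mutant, beside 12.2% of all such genes, with a list median of 0.09 beside -0.08. Cells with more UMIs of mature B genes were 8 in WT against 51 in the mutant, and the part of this in the Cd74 level was not tested.

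The other factors of stromal niches, a list of 10 genes, did not pass 2-fold in endothelial-like or mesenchymal-like cells, where 4.65% and 4.95% of all genes with at least 50 UMIs did. In endothelial-like cells 9 reached 50 UMIs and the median log2 ratio was 0.16 beside 0.03 over all genes, with Kitl, the ligand of Kit, at 1146 CPM in WT against 1102 CPM in the mutant. In mesenchymal-like cells all 10 reached 50 UMIs with a median of 0.22 beside 0.01. Their log2 ratios ran from -0.99 (-1.22 to -0.78) for Nt5e to 0.81 (0.64 to 0.98) for Vcam1. Kitl was lower there, at 40.4 CPM in WT against 24.8 CPM in the mutant. In neutrophil-like cells 6 reached 50 UMIs, and Nt5e, which makes adenosine, was higher at 43.8 and 90.3 CPM, 1 of 6 beside 5.35% of all such genes. Of 10 genes of the response to low oxygen, which is known to raise Cxcr4 and Cxcl12, 9 reached 50 UMIs in endothelial-like cells. Of these, Vegfa was higher (6.49 and 17.1 CPM) and the glucose transporter gene Slc2a1 lower (63.2 and 28.7 CPM), beside 4.65% past 2-fold among all such genes. The list's median was -0.21 beside 0.03. None of this list passed 2-fold in mesenchymal-like cells (9 measured, median -0.06), neutrophil-like cells (9 measured, median -0.20) or B lineage-like cells (4 measured, median 0.29). Of all such genes 4.95%, 5.35% and 12.2% did, with medians of 0.01, 0.07 and -0.08.

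Early response and heat shock genes, which also mark handling of the tissue, were followed as a last list of 10. In endothelial-like cells Hspa1a (200.2 and 60.6 CPM) and Hspa1b (223 and 53.9 CPM) were lower in the mutant, 2 of 10 beside 4.65% of all such genes. The list's median log2 ratio was -0.27 beside 0.03. None of the 10 passed 2-fold in mesenchymal-like cells (median -0.21 beside 0.01) or neutrophil-like cells (median 0.11 beside 0.07), where 4.95% and 5.35% of all such genes did. In B lineage-like cells 4 of the 8 with 50 UMIs were higher, namely Fos (178 and 523 CPM), Dusp1 (59.2 and 293 CPM), Egr1 (90.1 and 181 CPM) and Atf3 (20.6 and 44.5 CPM), with a median of 0.94 beside -0.08 over all genes, of which 12.2% passed 2-fold in either direction, 442 of 5608 being higher. Their part in the B lineage Cxcr4 levels was not tested.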

How the data were processed

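Cells of 2 TMJ libraries, 1 per group, were counted on the 10x Genomics platform. The authors deposited raw UMI counts per gene and barcode from Cell Ranger 7.0.1 with GRCm38 (mm10), at 53517206 UMIs in WT and 62446987 in the mutant, and whether introns were counted is not given in the sources used here. Barcodes with 500 or more genes and a mitochondrial share below 10% were kept as cells, normalised with SCTransform (sctransform 0.4.2) and integrated by anchors in Seurat 5.3.0 (R 4.3.3; 3000 features, 200 principal components, resolution 1.5), with 55 genes, the 3 members and the listed partners, left out. A cluster was named when at least 3 markers of a class were raised 2-fold, by rules set after the clusters had been seen. The members and lists were chosen with earlier results of these data known. Doublets were kept. The doublet caller in scanpy 1.11.5 marked 0.046% and 0.017% of cells at its own threshold, so it did not work, and removing the highest scores served as an alternative. UMIs were summed per type and library, intervals were exact (SciPy 1.17.1), genes with at least 50 UMIs over both libraries were read against a 2-fold limit, and no test between groups was made. From each list, genes past 2-fold were named, at most the 4 with the most UMIs per type. Kitl, and the lowest and highest ratios of the niche list in mesenchymal-like cells, were added after their values were seen. The 5 genes most like each member were named, except 1 that is not reported here. Scripts were tested on simulated data. Alternatives were other cell filters, clusterings, scalings and thinning depths.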

Additional observations from a re-analysis of the deposited data

Results flagged for a closer look

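Several cell types had a ratio between the libraries that differed in sign or size from that of the larger classes given beside them. Differences between types were not tested, because each group is 1 library. For Cxcl12, where endothelial-like cells were near equal and mesenchymal-like cells had a log2 ratio of mutant to WT of 0.51, the mural cells, smooth muscle-like and pericyte-like, lay the other way at -0.40, and the osteoblast- and osteocyte-like cluster had a larger ratio of 1.76. For Cxcr4 the ratio was -0.29 in macrophage-like and -0.14 in neutrophil-like cells. The granulocyte-monocyte progenitor-like cells lay the other way at 0.32. That value ranged from 0.06 with 30 principal components to 0.71 with cells taken by marker UMIs alone. The T and NK-like cells lay the same way at -0.88, with 16 of their 62 WT UMIs in 1 cell, and ranged from -0.88 to -0.10, the last as a mean over cells of each cell's CPM. For Ackr3 the ratio was -0.13 in mesenchymal-like cells, which gave most of its UMIs, and -0.39 in endothelial-like cells. The chondrocyte-like cells lay the same way at -1.76. The osteoblast- and osteocyte-like cluster lay the other way at 1.07, on 16 UMIs in WT and 32 in the mutant, of which 11 and 18 were in 1 cell each. Without these cells its Ackr3 was 9.66 CPM (3.14 to 22.5) in WT against 27.3 CPM (14.9 to 45.8) in the mutant, on 5 and 14 UMIs, with overlapping intervals.

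Cxcl12 was also found in the unnamed clusters, which belong to no named type, at 20.1 CPM (17.6 to 22.8) in 579 WT cells against 55.1 CPM (51.3 to 59.0) in 1893 mutant cells, a log2 ratio of 1.45. The cells sat in different clusters in the libraries, and the part of this in the ratio was not tested. The Mmp12-led cluster, at 2.34 CPM in WT, held 256 of the WT and 191 of the mutant cells, while 2 other clusters held 6 and 23 WT against 641 and 287 mutant cells, with 168 and 69.4 CPM in WT. Of 8 unnamed clusters with Cxcl12 UMIs in both libraries, 2 had at most 5 UMIs in a library, 4 had ratios from -0.38 to 0.06 with intervals that spanned 0, and the other two had 1.28 (0.31 to 2.44) and 1.72 (1.23 to 2.24).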

How the results depend on the processing

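Of 83 recomputed values of the 6 main ratios, 66 stayed within the counting interval of the reported value, 15 moved outside it and 2, whose interval had excluded 0, changed sign, and the cause was not tested. Endothelial Cxcl12 was 0.0046 when merged without integration, 0.015 with cells taken by marker UMIs alone, -0.0037 with at least 1000 genes and -0.020 with 30 principal components. Mesenchymal Cxcl12 was 0.39 with at least 200 genes, 0.42 merged, 0.40 with 30 principal components, 0.32 as a mean over cells and 0.71 without clusters mostly of 1 library. Neutrophil Cxcr4 was 0.061 with 30 principal components, -0.37 by marker UMIs alone and -0.77 as a mean over cells. Mesenchymal Ackr3 was -0.21 with at least 200 genes, -0.25 with 30 principal components, -0.46 as a mean over cells, -0.23 with unnamed clusters added to the nearest class and -0.054 without clusters mostly of 1 library. Endothelial Ackr3 ranged from -0.49 to -0.25 and B lineage Cxcr4 from -0.50 to 0.02. Of 94 values of the other ratios 84 stayed, 9 moved and 1 changed sign, macrophage Cxcr4 at 0.018 by marker UMIs alone, and endothelial Cxcr4 reached 1.43 as a mean over cells. Of 60 shares of cells with a UMI at other thinning depths or with no thinning, 47 moved. Genes past 1.5-fold were 14.3% in endothelial-like, 13.1% in mesenchymal-like, 18.5% in neutrophil-like and 30.7% in B lineage-like cells, and with at least 200 UMIs those past 2-fold were 2.32%, 2.31% and 2.82% in the first 3. The WT cluster mix and the omission of clusters mostly of 1 library or of the cells with the most UMIs in the osteoblast- and osteocyte-like cluster were chosen after seeing the data. No paired analysis was possible because each group is 1 library. With no replicates, intervals cover counting error and not differences between mice or preparations.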
